A study of Bos taurus with 28 samples.

Results

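PTN, MME and ADAMTS1 are 3 of the 24616 genes counted in subcutaneous AT of dairy cows, and they were chosen by the values of these same counts, in which PTN and ADAMTS1 were higher and MME lower after calving. Their rows were found by Ensembl identifier, ENSBTAG00000002317 for PTN, ENSBTAG00000002075 for MME and ENSBTAG00000000706 for ADAMTS1. Because the choice used the comparisons with PreP, the levels and fold changes of the 3 genes are given as a description without a p-value. The questions addressed are how differently the 3 genes ran over the time points, in how many cows, and whether they varied together between libraries.

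RNA-seq was done on 28 biopsies from 11 cows. They were taken about 11 days before the expected calving date (PreP, 9 libraries), about day 6 after calving (PP1, 10 libraries) and about day 13 (PP2, 9 libraries). The study gives each of these days with a spread, and the PreP label names no day. All were multiparous Holstein cows that were pregnant and non-lactating when selected, and each was fed a close-up diet before calving and a fresh diet after it. Thus PP1 and PP2 differ from PreP in pregnancy, lactation, diet and an earlier biopsy of the same flank, whose effects cannot be told apart. Biopsies were taken from the right flank, and the incision was moved at each collection. The labels give no sequencing batch. The complete course was sampled in 8 cows, only the postpartum part in B5079, only PreP in B5176 and only PP1 in B5054. The series' design text also speaks of mammary glands, whereas the labels of the samples and the study's methods name adipose tissue. None of 10 adipocyte markers could be linked to a row here, while PPARG, the master regulator of adipocyte differentiation, was read in every library, from 18.6 to 253 CPM.

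Pleiotrophin, the product of PTN, is a secreted heparin-binding growth factor that acts through a receptor phosphatase and a receptor kinase, and it restrains the differentiation of preadipocytes in culture. Neprilysin, the product of MME, is a zinc metallopeptidase anchored in the cell membrane that cuts small signalling peptides such as the natriuretic peptides, and its protein is a surface marker of stromal cells. ADAMTS1 is a secreted zinc metallopeptidase with thrombospondin motifs that cuts large proteoglycans of the extracellular matrix such as versican.

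Values are in CPM, read counts relative to the library total after scaling by the TMM method over all 28 libraries, and total counts per library ran from 15293154 to 22284884. In a single library, 3 reads amount to between 0.129 and 0.201 CPM, a floor that covers counting error only. In bulk tissue, fewer cells of a type and less RNA per cell cannot be told apart, which applies to each level and difference given here. Nothing in the labels says that biopsies were replicated within a cow, so the spread between libraries of a time point is that between cows. Levels in CPM are compared between libraries. As gene lengths of the build used were not at hand, an order of genes by CPM served only to pick which to name and is no order of their levels per length.

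The libraries labelled PreP and PP1 of cow B5169 stood apart. MME was 0.548 CPM in its PreP library, below the other 8 (6.15 to 49.2 CPM), and 48.7 CPM in its PP1 library, above the other 9 (0.492 to 8.02 CPM). Some other genes stood apart in these libraries and some did not. CD68, a macrophage marker, was 101 CPM at PreP, above the other 8 libraries, and 32.4 CPM at PP1, below the other 9. MAOB, an amine oxidase chosen after its values were seen, was 51.8 CPM at PreP, below the other 8, and 134 CPM at PP1, above the other 9. CYP1A1, a cytochrome P450 gene also chosen after its values were seen, was within the range of the others at PreP (21.6 CPM) and PP1 (11.8 CPM), and at PP2 above the other 8 (7.87 CPM against 0 to 5.13 CPM). LUM, a stromal marker, and MSR1, a macrophage marker, were within the others' range at PreP and below the other 9 at PP1, LUM at 222 CPM (others 299 to 1812 CPM) and MSR1 at 15.3 CPM (others 45.6 to 93.7 CPM). The PP2 library of B5169 was within the range of the others for MME, CD68, MAOB, LUM and MSR1. The cause was not tested, nor was an exchange of the 2 labels. The labels were kept, and the fold changes of the 3 genes and of the markers that rose are given with and without this cow.

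The growth factor gene PTN was higher after calving on average, and this average rested on a part of the cows. PTN at PreP ran from 1.82 CPM (cow B5129) to 14.1 CPM (B5090), with a median of 8.29 CPM. At PP1 the lowest value was 4.93 CPM (B5169), the median 21.4 CPM and the highest 196 CPM (B5102). At PP2 the lowest value was 8.20 CPM (B5079), the median 13.9 CPM and the highest 186 CPM (B4987). The groups overlapped, since 6 of 10 PP1 libraries and 4 of 9 PP2 libraries were above every PreP library. Over all tested genes, 0.0325% had PreP and PP1 ranges that did not overlap and 0.167% had PreP and PP2 ranges that did not overlap. The mean of PTN was 7.65 ± 4.04 CPM before calving (SD, n = 9), 47.5 ± 61.4 CPM on day 6 (SD, n = 10) and 39.4 ± 57.6 CPM on day 13 (SD, n = 9). The fitted log2 fold change was 2.68 (SE 0.66) at PP1 and 2.40 (SE 0.59) at PP2, or 6.41-fold and 5.28-fold, where the median over all tested genes was 0.04 and 0.10.

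Single libraries carried much of the mean of PTN. The PP1 library of B5102 held 41.3% of the CPM of PTN summed over PP1, and the PP2 library of B4987 held 52.4% of that summed over PP2. Without B5102 the log2 fold change at PP1 was 2.04, and without B4987 that at PP2 was 1.61. Without B5169 the values were 2.77 (SE 0.67) and 2.47 (SE 0.63). Its direction stayed upward whichever cow was left out.

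Within cows, PTN was higher at PP1 than at PreP in 5 of 8 cows and lower in 3. The increases ran from a log2 difference of 1.21 in B5165 to 4.86 in B5102, and the decreases were -0.13 in B5169, -0.59 in B4886 and -0.90 in B4987. At PP2, PTN was higher than at PreP in 7 of 8 cows, by a median of 1.33. B5090, at -0.34, was the exception. In 4 of 8 cows (B4886, B4987, B5090 and B5169) the postpartum biopsies differed more from each other than either did from PreP. Between PP1 and PP2, PTN rose by 4.91 in B4987 and fell by 3.82 in B5102 on the log2 scale. The highest PTN of a cow was at PP1 in 4 cows and at PP2 in 4, and at PreP in 0 of 8.

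**Figure D1:**
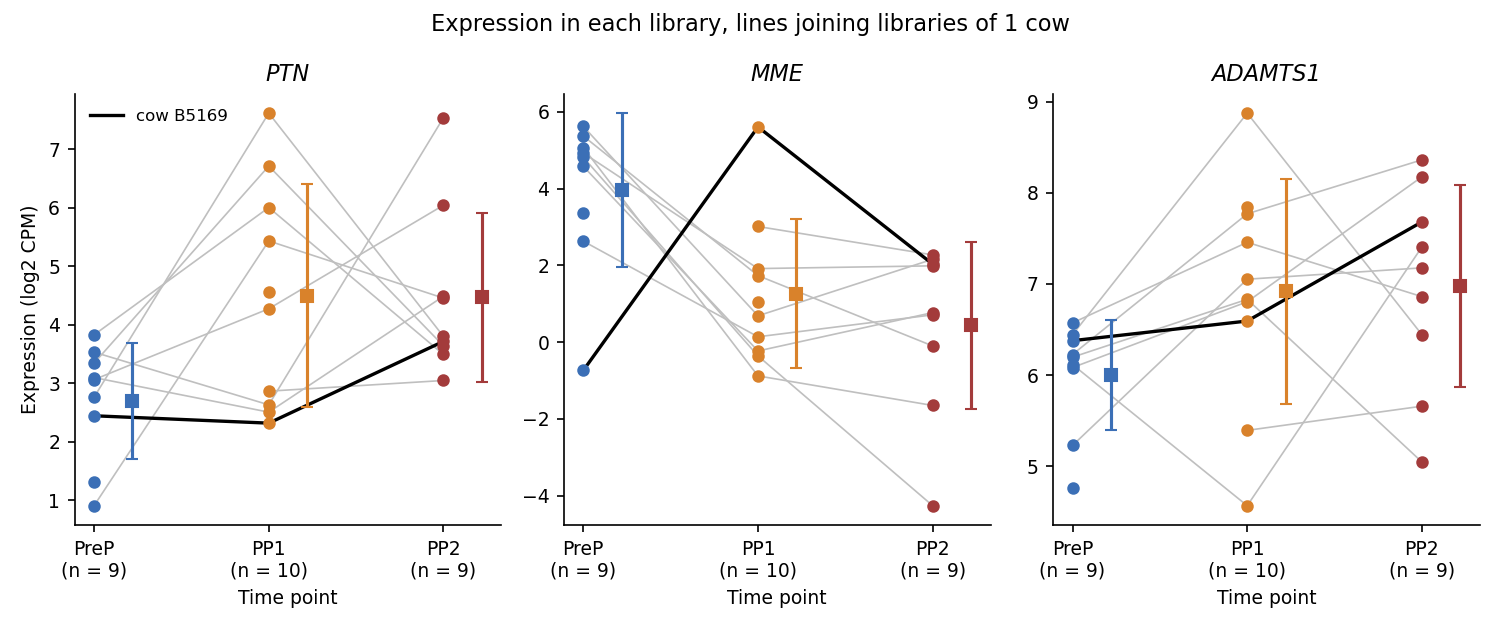
Expression of PTN, MME and ADAMTS1 (log2 CPM, prior count 1) in each library at PreP, PP1 and PP2. Circles are libraries, grey lines join the libraries of 1 cow, the black line is cow B5169, and squares with bars are the mean ± SD. PTN spreads out after calving, MME falls in every cow sampled before and after calving except B5169, and ADAMTS1 is above PreP in most libraries. The lowest MME point at PP2 is a library with 0 reads (B4886), placed by the prior count.

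The neprilysin gene MME ran the other way. At PreP, MME ran from 0.548 CPM (B5169) to 49.2 CPM (B5090), with a median of 28.1 CPM. At PP1 it ran from 0.492 CPM (B5064) to 48.7 CPM (B5169), with a median of 1.78 CPM. At PP2 it ran from 0 reads (B4886) to 4.78 CPM (B5079), with a median of 1.65 CPM. The overlap of PP1 and PP2 with PreP was almost wholly that of B5169. Without this cow, 8 of 9 PP1 libraries and 8 of 8 PP2 libraries were below every PreP library, and the PP1 library of B5079, at 8.02 CPM, was above the lowest PreP library, that of B5165 at 6.15 CPM. Over all tested genes, ranges without B5169 did not overlap for 2.1% at PP1 and for 0.938% at PP2.

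The mean of MME was 24.8 ± 16.3 CPM before calving (SD, n = 9), 7.04 ± 14.8 CPM on day 6 (SD, n = 10) and 2.39 ± 1.89 CPM on day 13 (SD, n = 9). The fitted log2 fold change was -1.84 (SE 0.78) at PP1 and -3.35 (SE 0.71) at PP2, that is, 3.58-fold and 10.2-fold lower. Without B5169 it was -3.49 (SE 0.51) at PP1 and -3.65 (SE 0.66) at PP2. Thus 1 cow decided how far MME appeared to fall at PP1, and the difference between PP2 and PP1 went from -1.55 (SE 0.86) with this cow to -0.14 without it.

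In each of the 7 cows other than B5169 sampled at PreP and PP1, MME was lower at PP1, with log2 differences between -2.49 (B5165) and -5.95 (B5064). The same 7 cows were lower at PP2. The least difference at PP2 was -1.92, in B5165, which had the lowest PreP level of these cows. In B4886, MME went from 28.1 CPM at PreP to 14 reads at PP1 and 0 reads at PP2, and taking 3 reads as the floor of the PP2 library, the level was at least 163-fold lower. Of the 8 cows, 7 had their highest MME at PreP. The lowest value was at PP1 in 4 cows and at PP2 in 3, so the 2 postpartum time points had no common order.

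Because PTN and MME are counted in the same library, the share of PTN among the reads on both genes does not depend on library size or scaling. It does depend on the lengths of both genes, so that it is compared between libraries only, and 50% does not mark equal levels. This share had a median of 23.1% at PreP, 93.5% at PP1 and 94.0% at PP2. In the 8 PreP libraries other than B5169 it ran from 7.08% (B5129) to 57.4% (B5165). In the PP1 libraries other than B5169 it ran from 47.4% (B5079) to 99.5% (B5064), and in the 9 PP2 libraries from 63.2% (B5079) to 100% (B4886). Of these 8 PreP libraries 7 were below every PP1 and PP2 library other than those of B5169. B5169 was 90.8% (95% exact binomial interval 84.1% to 95.3%, 119 reads) at PreP, 9.18% (7.35% to 11.3%, 871 reads) at PP1 and 76.4% (71.9% to 80.5%, 398 reads) at PP2. These intervals cover counting error only.

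**Figure D2:**
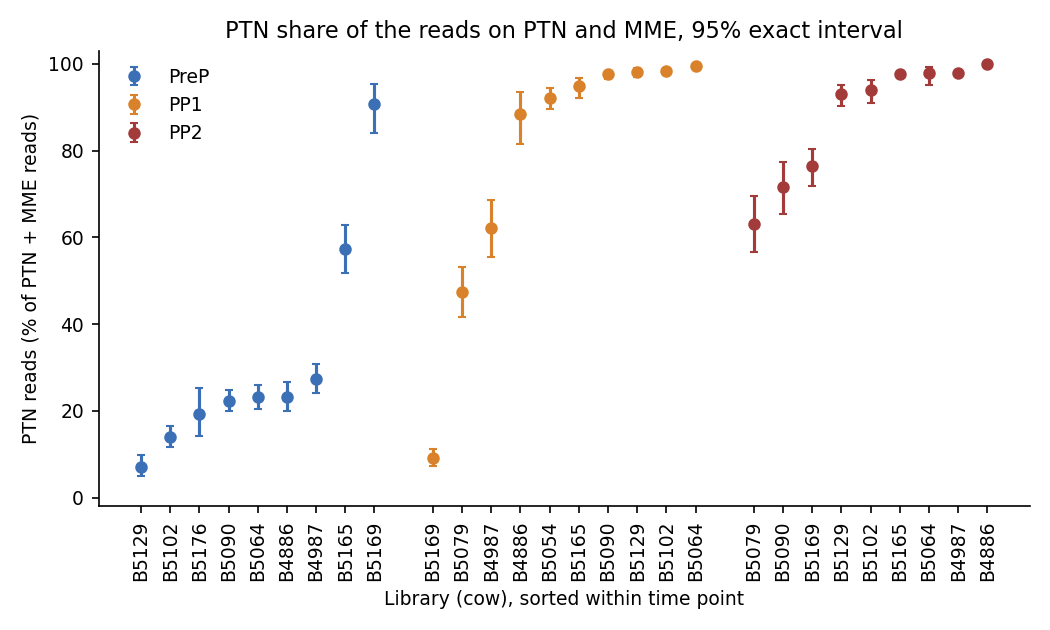
Reads on PTN as a percentage of the reads on PTN and MME together, for each library, sorted within PreP (blue), PP1 (orange) and PP2 (red). Bars are 95% exact binomial intervals, which cover counting error only. Medians rise from 23.1% to 93.5% and 94.0%, and the PreP and PP1 libraries of cow B5169 sit at 90.8% and 9.18%.

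ADAMTS1, the secreted protease of matrix proteoglycans, was higher in most postpartum libraries and spread more widely there. At PreP it ran from 27.1 CPM (B5176) to 95.1 CPM (B4886), with a median of 73.3 CPM. At PP1 it ran from 23.7 CPM (B5102) to 469 CPM (B5090), with a median of 123 CPM. At PP2 it ran from 32.99 CPM (B5064) to 329 CPM (B4987), with a median of 145 CPM. Above every PreP library were 8 of 10 PP1 and 6 of 9 PP2 libraries, while the PP1 library of B5102 was below every PreP library. That library had the highest PTN of the 28.

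The mean of ADAMTS1 was 68.3 ± 22.4 CPM before calving (SD, n = 9), 161 ± 127 CPM on day 6 (SD, n = 10) and 158 ± 102 CPM on day 13 (SD, n = 9). The fitted log2 fold change was 1.28 (SE 0.40) at PP1 and 1.26 (SE 0.36) at PP2, or 2.43-fold and 2.39-fold. Without B5169 it was 1.39 (SE 0.43) and 1.24 (SE 0.40). Within cows, ADAMTS1 was higher in 7 of 8 at PP1, by a median of 0.80, with B5102 lower by 1.55. At PP2 it was higher in 6 of 8, level in B5090 (a log2 difference of 0.000883) and lower by 1.15 in B5064, with a median of 1.30 over the 8. The lowest level of a cow was at PreP in 6 of 8 cows for ADAMTS1, in B5090 by no more than that difference, and in 4 of 8 for PTN.

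Between PP2 and PP1 no gene of 18518 tested passed the threshold in edgeR (0%), 1037 had an unadjusted p under 0.05, and the smallest FDR was 0.0879. A joint fit of the 3 time points called 172 genes higher and 4 lower at PP2 than at PP1 (0.95%). In the fit of PP1 and PP2 alone, the log2 difference was -0.27 (SE 0.73) for PTN, -1.55 (SE 0.86) for MME and -0.03 (SE 0.46) for ADAMTS1. Within cows, 5 of 9 were higher at PP2 for PTN, 4 of 9 for MME and 6 of 9 for ADAMTS1. The ranges of PP1 and PP2 overlapped for all 3 genes, and over all tested genes 0.0054% did not overlap, with or without B5169. Thus the fit of PP1 and PP2 alone resolved no difference between the 2 postpartum biopsies for the 3 genes.

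Correlations between the genes were computed within a time point, so that the difference between time points could not produce them. Over 9 correlations, none passed the Benjamini-Hochberg adjustment. PTN and ADAMTS1 had r = 0.85 at PreP (rho = 0.67, permutation p = 0.015 and 0.059, adjusted p = 0.11 and 0.23, exact over all pairings of 9 libraries). At PP2 they had r = 0.73 (rho = 0.78, exact permutation p = 0.025 and 0.017, adjusted p = 0.11 and 0.15). At PP1 they had r = -0.18 (rho = -0.03, permutation p = 0.62 and 0.95, adjusted p = 0.80 and 0.98). The PreP value rested on B5129 and B5176, which were low in both genes, and without them r was 0.14. Without the 2 libraries of highest PTN at PP2, r was 0.50. The PP1 value turned with 1 library, as r was 0.34 without B5102 and 0.52 without B5102 and B5064.

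MME showed no relation to the others that passed the adjustment. With PTN, r was 0.27 at PreP, -0.47 at PP1 and 0.07 at PP2 (exact or 100000-fold permutation p = 0.50, 0.17 and 0.88, adjusted p = 0.80, 0.51 and 0.96), and rho was 0.63, -0.39 and -0.47 (permutation p = 0.076, 0.26 and 0.21, adjusted p = 0.23, 0.47 and 0.47). With ADAMTS1, r was 0.02, -0.31 and 0.24 (permutation p = 0.96, 0.37 and 0.54, adjusted p = 0.96, 0.80 and 0.80), and rho was 0.32, -0.32 and 0.02 (permutation p = 0.41, 0.37 and 0.98, adjusted p = 0.53, 0.53 and 0.98). At PreP, r with ADAMTS1 was 0.49 without B5169. Leaving out the 2 libraries farthest from the median gave r with PTN of 0.71, -0.55 and -0.63, and r with ADAMTS1 of 0.84, -0.14 and -0.36.

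**Figure D3:**
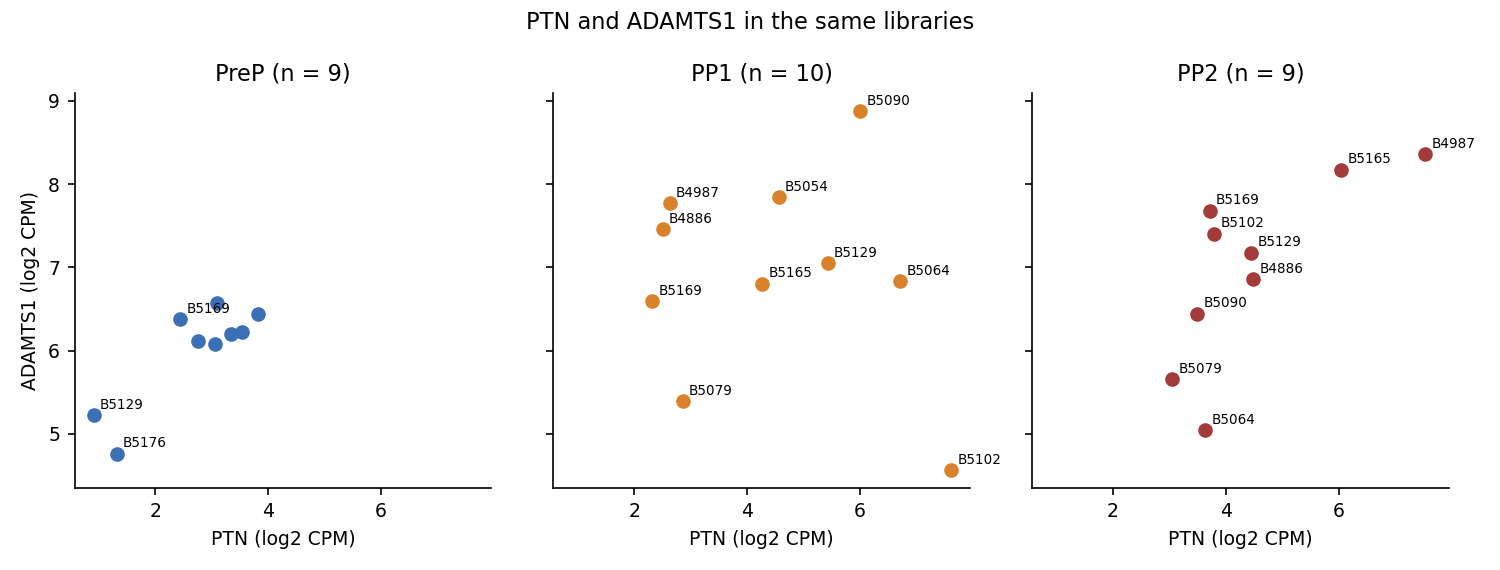
ADAMTS1 against PTN (both log2 CPM) in the libraries of PreP, PP1 and PP2, each point 1 library named by its cow (at PreP only those discussed are named). At PreP the relation rests on B5129 and B5176, at PP1 the library of B5102 has the highest PTN and the lowest ADAMTS1, and at PP2 B4987 and B5165 are high in both.

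After calving, PTN moved with 1 measure of library makeup, the share of counts on the 10 genes with most reads. The 3 libraries with most PTN, B5102 at PP1, B4987 at PP2 and B5064 at PP1, were also the 3 in which the 10 genes with most reads held the largest share of counts, with 22.2%, 24.4% and 16.9%. Over all 28 libraries this share ran from 7.31% to 24.4%. Across libraries of a time point, r between PTN and this share was 0.79 at PP1 (rho = 0.73, n = 10) and 0.84 at PP2 (rho = 0.72, n = 9), and -0.12 at PreP (rho = 0.15, n = 9), as a description of libraries that share a depth scale. ADAMTS1 had r = -0.25 at PreP, -0.37 at PP1 and 0.44 at PP2 with the same share, and MME 0.51, 0.07 and -0.13. With the number of genes with reads, PTN had r = 0.54 at PreP, -0.34 at PP1 and -0.24 at PP2. With total counts it had r = -0.12, 0.27 and 0.56. LUM, which encodes the matrix proteoglycan lumican and marks stromal cells, was highest in the same pair of libraries, at 1812 CPM in B5102 at PP1 and 2588 CPM in B4987 at PP2. The part of library makeup in the PTN values was not tested.

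**Figure D4:**
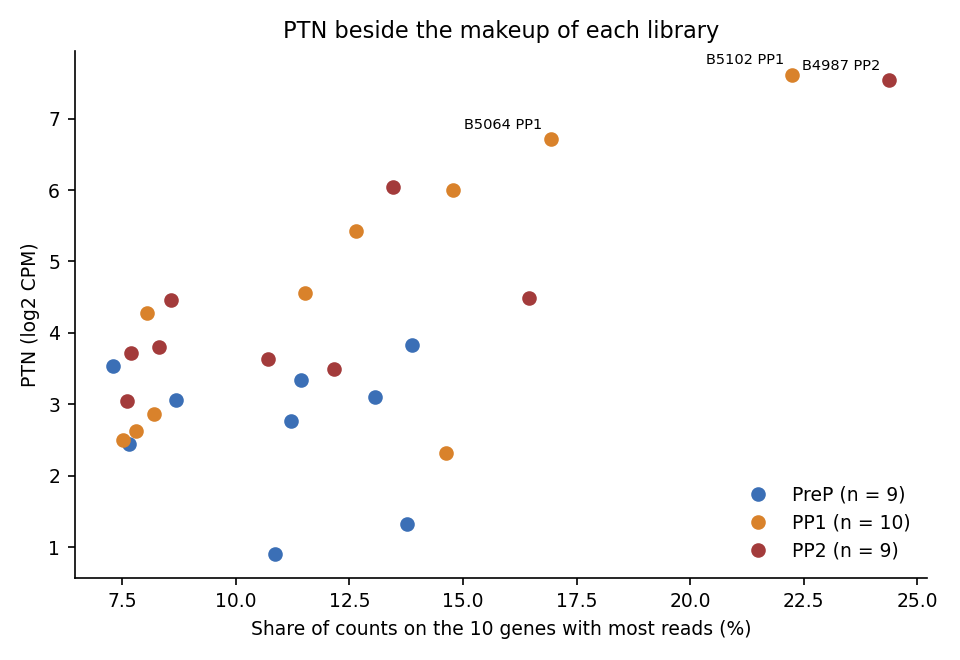
PTN (log2 CPM) against the share of counts on the 10 genes with most reads (%), 1 point per library. The libraries with most PTN (B5102 at PP1, B4987 at PP2 and B5064 at PP1) have shares of 22.2%, 24.4% and 16.9%, the 3 largest of 28.

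Markers of other cells in the biopsies were read beside these courses, and some stromal and macrophage markers rose. Of 16 stromal progenitor and fibroblast markers 5 could be linked to a row, and their summed level had a median of 2484 CPM at PreP (1442 to 3338), 4053 CPM at PP1 (1617 to 6662) and 3965 CPM at PP2 (1474 to 5304). LUM rose at PP1 and PP2 (log2 fold change 2.33, FDR 0.00249, and 2.18, FDR 0.0121, edgeR). PI16, a marker of adventitial fibroblasts, also rose (1.86, FDR 0.0149, and 2.11, FDR 0.0259, edgeR), a call lost at PP2 in 4 of 10 fits with 1 cow left out and at PP1 without B5129. Without B5169, LUM was at 2.40 (FDR 0.000146) and 2.23 (FDR 0.0138), and PI16 at 2.08 (FDR 0.00122) and 2.34 (FDR 0.0181). LUM kept its calls with each cow left out, and its lowest values were 2.07 at PP1 (without B5102) and 1.44 at PP2 (without B4987). FBN1, the fibrillin gene and that of highest mean CPM in this list, did not pass the test (0.62, FDR 0.266, and 0.09, FDR 0.922, edgeR). PDGFRB and MFAP5, chosen after their values were seen, did not pass at PP1 (0.25, FDR 0.424, and 0.48, FDR 0.345, edgeR). Neither passed at PP2, where with 1 cow left out PDGFRB ran from 0.19 to 0.64 and MFAP5 from -0.36 to -0.02.

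Of 12 macrophage markers 3 were linked, and their sum had a median of 280 CPM at PreP (175 to 426), 575 CPM at PP1 (261 to 1139) and 331 CPM at PP2 (96.9 to 556). CD68 rose at both time points (2.12, FDR 0.00314, and 1.48, FDR 0.0206, edgeR), and the PP2 call was lost in 3 of 10 fits with 1 cow left out. MSR1, a scavenger receptor of macrophages, rose at PP1 (1.90, FDR 0.00249, edgeR), and its value at PP2 was 0.88 (FDR 0.165). Without B5169, CD68 was at 2.46 (FDR 1.45e-05) and 1.76 (FDR 0.00811), and MSR1 at 2.05 (FDR 1.45e-05) and 0.88 (FDR 0.195). LGALS3 did not pass (0.79, FDR 0.0867, and -0.01, FDR 0.988, edgeR). Endothelial markers, 2 of 10 linked, had medians of 406, 391 and 406 CPM, and KDR did not pass (0.32, FDR 0.285, and 0.33, FDR 0.498, edgeR).

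The other marker lists were sparse. Pericyte and smooth muscle markers were represented by KCNJ8 (0.43, FDR 0.273, and 0.65, FDR 0.0660, edgeR), 1 of 10, with medians of 26.7, 32.4 and 36.5 CPM. Neutrophil markers were represented by FCGR3A, 1 of 8, with medians of 33.04, 47.7 and 27.3 CPM, and at PP1 it had an FDR of 0.0125 at a log2 fold change of 0.58, below the fold threshold. Mesothelial markers, 4 of 7, summed to medians of 1.17, 1.54 and 1.35 CPM, and MSLN, the mesothelin gene, rose at PP1 (2.17, FDR 0.0327, edgeR), a call lost in 6 of 11 fits with 1 cow left out, though not without B5169 (2.18, FDR 0.0155). At PP2 it was at 1.93 (FDR 0.0710). The other mesothelial markers did not pass, with KRT8 at -0.04 (FDR 0.978) and 0.34 (FDR 0.777), KRT18 at 0.03 (FDR 0.987) and 0.34 (FDR 0.874), and LRRN4, near 0 reads, at FDR 0.830 and 0.165. KRT18 and LRRN4 were chosen after their values were seen. Red blood cell markers were represented by SLC4A1, 1 of 7, which had a median of 0 CPM at each time point. Skeletal muscle markers, 2 of 18, had a median of 1.98 CPM at PP2 and reached 8278 CPM in the PP2 library of B5090, in which PTN, MME and ADAMTS1 were 11.2, 4.42 and 87.0 CPM, within the range of the other PP2 libraries. Schwann cell and skin markers, 10 and 7 genes, had none linked. The part of these cell types in the courses of PTN, MME and ADAMTS1 was not tested.

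Other metallopeptidase genes, and the ADAMTS-like gene ADAMTSL1, were tested as a background for MME and ADAMTS1. As these 2 were chosen for their changes, a contrast with the background was fixed in advance. Of 19 such genes tested at each time point, members left out, 0 passed the threshold in edgeR in either direction at PP1 or PP2. Over all genes, 4.03% passed at PP1 (3.34% higher, 0.693% lower) and 5.47% at PP2 (3.52% higher, 1.95% lower), so that a count of 0 among 19 is near the share of all genes. Their median log2 fold change was -0.05 at PP1 and 0.03 at PP2, where that of all tested genes was 0.04 and 0.10. Of the 19, 14 were within 0.5 of 0 at each. The share of all genes within 0.5 of 0 was not computed, so this count is not read as a trait of these genes. In the neprilysin family, ECE1, the endothelin-converting enzyme, averaged 247 ± 60.8 CPM before calving (SD, n = 9), 213 ± 45.6 CPM on day 6 (SD, n = 10) and 270 ± 119 CPM on day 13 (SD, n = 9). For ECE1 the log2 fold change was -0.18 (SE 0.16, FDR 0.506) at PP1 and 0.20 (SE 0.24, FDR 0.704) at PP2. PHEX, the third linked member, was near its floor, with medians of 0, 0.0778 and 0.114 CPM and log2 fold changes of 1.81 (FDR 0.211) and 2.33 (FDR 0.0965). Without B5169 it was the exception among the 19, with a call at PP2 (3.04, FDR 0.0423, edgeR), and it passed at PP2 in 2 of 10 fits with 1 cow left out.

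In the ADAMTS family, 4 genes besides ADAMTS1 could be linked of 19 listed. ADAMTS5, the main aggrecanase, had log2 fold changes of 0.45 (SE 0.34, FDR 0.430) and 0.51 (SE 0.33, FDR 0.406). Without B5169 these were 0.91 (FDR 0.0174), under the fold threshold, and 0.78 (FDR 0.0936). ADAMTS5 was chosen after its values were seen, as were PHEX and ADAMDEC1. ADAMTS7 had -0.02 (SE 0.23, FDR 0.966) and -0.06 (SE 0.27, FDR 0.933). ADAMTSL1, which resembles ADAMTS proteins but lacks the protease domain, had -0.02 and 0.07 (FDR 0.979 and 0.939). ADAM17, the sheddase of membrane-bound cytokines, had 0.17 and 0.01 (FDR 0.463 and 0.988). MMP17 had -0.08 and 0.29 (FDR 0.940 and 0.801), and PMPCA, a subunit of the mitochondrial processing peptidase, -0.40 and -0.22 (FDR 0.202 and 0.614). For PMPCA the value at PP1 was -0.59 (FDR 0.0132) without B5169, also under the fold threshold. ADAMDEC1 had 2.69 (SE 1.07, FDR 0.126) at PP1 and 2.90 (SE 1.14, FDR 0.137) at PP2, at medians of 0, 0.168 and 0.160 CPM. Its PP2 value rested on 1 library, being 0.72 without B4987.

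**Figure D5:**
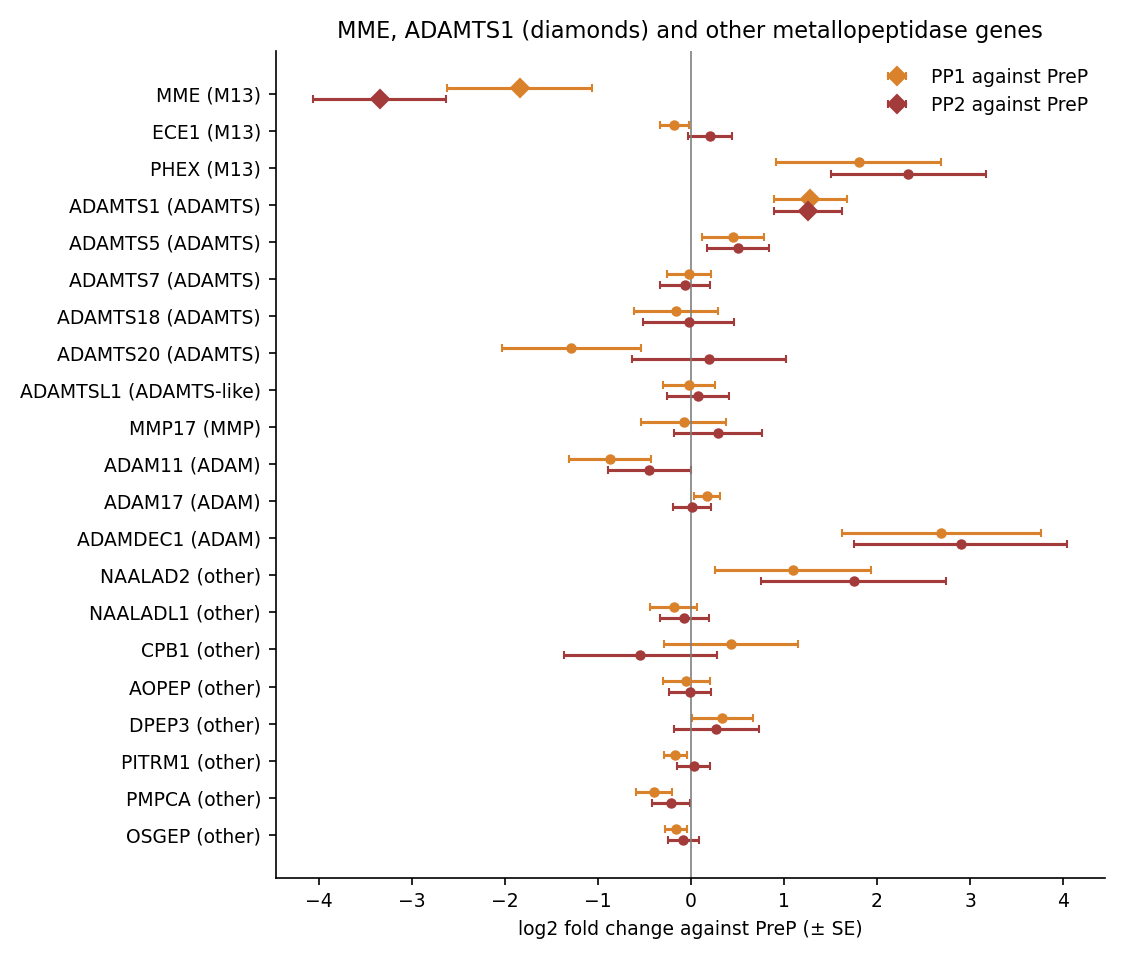
log2 fold change against PreP (± SE) at PP1 (orange) and PP2 (red) for MME, ADAMTS1 (diamonds) and the 19 other linked metallopeptidase and ADAMTS-like genes (circles). MME lies at -1.84 and -3.35 and ADAMTS1 at 1.28 and 1.26, and both were chosen for such changes, so a contrast with the others was fixed in advance. Of the 19 others, 14 are within 0.5 of 0 at each time point.

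Genes on which these proteins act, or that act on them, were few. FURIN, the convertase that activates ADAMTS1, had log2 fold changes of -0.20 (FDR 0.490) and -0.08 (FDR 0.882), and RECK, a membrane-bound inhibitor of metallopeptidases chosen after its values were seen, 0.31 (FDR 0.419) and 0.19 (FDR 0.791). Of the ADAMTS1 substrates, THBS1, the thrombospondin gene, had 0.73 (SE 0.63, FDR 0.503) at PP1 and 1.55 (SE 0.76, FDR 0.244) at PP2. THBS1 was 1187 CPM in the PreP library of B5169, where the other 8 ran from 23.6 to 119 CPM, and 35.0 CPM in its PP1 library, where the other 9 ran from 179 to 542 CPM. Without this cow THBS1 rose, by 2.40 (FDR 2.4e-05) at PP1 and 2.86 (FDR 0.00718) at PP2. The lowest values with 1 cow left out were 0.50 at PP1 (B4886) and 0.91 at PP2 (B4987). CORIN, the protease that activates the natriuretic peptide cut by neprilysin, had 0.05 (FDR 0.969) at PP1. No other PTN ligand or PTN receptor of 21 listed, and no neprilysin substrate of 21, could be linked.

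Over the whole set of lists, 66 genes other than PTN, MME and ADAMTS1 were tested at PP1, of which 5 rose and 0 fell (7.58%), where 4.03% of all genes passed. At PP2, 65 were tested, of which 6 rose and 0 fell (9.23%), where 5.47% of all genes passed, and 2 of these 6, PYGM and LMOD2, are muscle genes that rested on the PP2 library of B5090. These lists were chosen with earlier results of these data known. Without the marker lists, 1 of 48 rose at PP1 and 2 of 47 at PP2. Without B5169, 8 rose and 1 fell at PP1, and 9 rose and 1 fell at PP2. The share of all genes called was larger without this cow too, at 9.5% (1013 higher, 735 lower) at PP1 and 7.22% (836 higher, 498 lower) at PP2.

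Among regulators of adipogenesis, PPARG averaged 173 ± 45.2 CPM before calving (SD, n = 9), 127 ± 62.2 CPM on day 6 (SD, n = 10) and 90.2 ± 51.5 CPM on day 13 (SD, n = 9; log2 fold change -0.42, FDR 0.269, and -0.89, FDR 0.0917, edgeR), and without B5169 it fell at PP2 by 1.08 (FDR 0.0407). Of 15 adipogenic regulators listed, 2 could be linked, and the other, KLF5, was chosen after its values were seen. KLF5 had 0.22 (FDR 0.760) at PP1, and without B5169 it had 0.31 (FDR 0.635) at PP1 and 0.16 (FDR 0.887) at PP2. FZD1, a WNT receptor, had 0.58 (FDR 0.129) at PP1 and 0.80 (FDR 0.121) at PP2, and 0.74 (FDR 0.0268) and 0.98 (FDR 0.0568) without B5169, under the fold threshold. FZD7, another WNT receptor chosen after its values were seen, had 0.22 (FDR 0.458) and 0.83 (FDR 0.0266), and 0.38 (FDR 0.0943) and 0.99 (FDR 0.0154) without B5169, also under that threshold. TCF7, a WNT target, had -0.21 (FDR 0.581) and -0.07 (FDR 0.929). CCN4, a WNT-induced matrix protein chosen after its values were seen, had 2.38 (SE 0.78, FDR 0.0700) and 2.40 (SE 0.78, FDR 0.0671), and without B5169 it rose by 2.73 (FDR 0.0264) and 2.76 (FDR 0.0472). CCN4 was at 1.37 at PP1 without B5102 and at 1.30 at PP2 without B4987. ANGPTL4, which inhibits lipoprotein lipase and responds to glucocorticoids, rose at PP2 (1.18, SE 0.30, FDR 0.0237, edgeR) and was at 0.83 (FDR 0.107) at PP1, with 128 ± 84.7 CPM before calving (SD, n = 9) and 281 ± 87.1 CPM on day 13 (SD, n = 9). That call was lost in 5 of 10 fits with 1 cow left out, the one without B5064 giving the lowest value. Without B5169 it passed at both, at 1.22 (FDR 0.00277) and 1.49 (FDR 0.00311). TAT, a liver enzyme gene also induced by glucocorticoids, had a median of 0 CPM at each time point and did not pass (FDR 0.266 and 0.0926). Of 11 glycosaminoglycan and proteoglycan genes, LUM passed at both time points and no other did, NDST1, a heparan sulfate sulfotransferase, being at -0.28 (FDR 0.257) and -0.09 (FDR 0.888). CSPG5, of the same list and chosen after its values were seen, fell at PP1 without B5169 (-1.27, FDR 0.0382, edgeR). Its value at PP2 without this cow was -0.89 (FDR 0.218). NDRG1, a gene induced by hypoxia, had 0.12 (FDR 0.704) and 0.37 (FDR 0.414).

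Each of the 3 genes had a different set of genes with the most similar variation between libraries. Likeness was Pearson's r of log2 CPM over 28 libraries after the mean of each time point was removed, ranked among 1439 genes with a symbol and a median of at least 1 CPM. The libraries share cows and depth, and r is given as a description. For PTN the 5 nearest genes were SYNJ2 (r = 0.78), PPIC (0.76), SLC17A9 (0.74), HEBP2 (0.73) and BACE2 (0.73), of which SYNJ2 encodes a phosphoinositide phosphatase, PPIC a cyclophilin, SLC17A9 the vesicular nucleotide transporter and BACE2 an aspartic protease. All 5 had their highest PP2 value in B4987, and all except BACE2 had their highest PP1 value in B5102.

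For MME the nearest were FKBP3 (r = 0.90), LACTB2 (0.89), DLD (0.89), HSD17B12 (0.88) and UQCRB (0.86). DLD is a subunit of the mitochondrial 2-oxoacid dehydrogenases, UQCRB a subunit of respiratory complex III and HSD17B12 an enzyme of fatty acid elongation. All 5 had their lowest PreP and highest PP1 value in B5169, and their lowest PP2 value in B4886, the library without a read on MME. Without B5169, r was 0.90 for FKBP3, 0.83 for LACTB2, 0.85 for DLD and 0.84 for UQCRB, and HSD17B12 went from rank 4 to rank 46 (r = 0.76).

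For ADAMTS1 the nearest were NR4A3 (r = 0.76), CX3CR1 (0.73), APOLD1 (0.70), NR4A1 (0.68) and IRF4 (0.67). NR4A3 and NR4A1 encode orphan nuclear receptors induced as early response genes, CX3CR1 the fractalkine receptor and IRF4 a transcription factor of immune cells and adipocytes. B5090 at PP1, the library with most ADAMTS1, had the highest PP1 value of NR4A3, NR4A1 and APOLD1.

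The time point means were removed for this ranking, but the same libraries were used, and a gene chosen for its high or low value in a library after calving also has a raised or lowered mean there. The courses of these 15 genes are therefore given as a description, without a p-value. Of PTN's 5, SLC17A9 averaged 3.63 ± 1.19 CPM before calving (SD, n = 9), 15.8 ± 11.3 CPM on day 6 (SD, n = 10) and 16.1 ± 13.1 CPM on day 13 (SD, n = 9). Its log2 fold change was 2.16 (SE 0.36) at PP1 and 2.21 (SE 0.42) at PP2, and 1.75 at PP1 without B5102 and 1.78 at PP2 without B4987. BACE2 was at 1.13 (SE 0.26) at PP2, and at 0.86 without B4987. SYNJ2, PPIC and HEBP2 were at 0.85, 0.56 and 0.79 at PP1 and at 0.95, 0.54 and 0.70 at PP2.

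Of MME's 5, all had negative values at both time points, with HSD17B12 at -2.19 (SE 0.52) at PP2. As B5169 had the lowest PreP and highest PP1 value of each, leaving it out lowers their PP1 values whatever the other cows show. Of ADAMTS1's 5, NR4A3, NR4A1 and IRF4 were at 2.61 (SE 0.68), 1.69 (SE 0.50) and 1.71 (SE 0.48) at PP2, and at 1.25, 1.56 and 1.98 at PP1. Single libraries carried part of this, as NR4A1 was at 981 CPM in B5090 at PP1 against a median of 56.1 CPM there. Without B5090, NR4A1 was at 0.41 and NR4A3 at 0.99 at PP1, while without B5169 NR4A1 was at 2.02. The lowest values at PP2 with 1 cow left out were 2.09 for NR4A3 (B4987), 1.22 for NR4A1 (B5165) and 1.47 for IRF4 (B5165). CX3CR1 and APOLD1 were at 0.46 and 0.45 at PP1 and at 0.10 and -0.03 at PP2.

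A fit that took cow as a replicate block gave an FDR in edgeR above 0.05 for PI16 (0.106), CD68 (0.0656), MSR1 (0.0625) and MSLN (0.171) at PP1, and for LUM (0.133), PI16 (0.187), PYGM (0.839) and LMOD2 (0.993) at PP2, which had passed without it. In the same order, their log2 fold changes with the block were 1.70, 2.12, 1.64 and 1.71 at PP1, and 1.70, 1.52, 0.57 and -0.05 at PP2. No other listed gene lost its call.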

How the data were processed

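The authors extracted RNA from frozen biopsies of subcutaneous AT, sequenced it on an Illumina platform, mapped the filtered reads to bosTau7 with HISAT2 2.1.0 and counted them per gene with HTSeq 0.6.1. They deposited raw read counts in 1 table per time point, and neither strandedness nor the treatment of multi-mapped reads is given in the sources used here. All 28 columns were matched to a cow and a time point by name, and they name 11 cows, 1 fewer than the study's methods state. The members and gene lists were chosen with earlier results of these data known, and 4 of the lists were added after the counts had been seen.

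Symbols came from a shortened copy of a supplementary table of the study that gives 1863 of the 24616 IDs a symbol, so 44 of 330 symbols first listed and all 26 added ones could be linked. The genes named are the 3 members, in each list the called genes (up to 4) and the gene of highest mean CPM not called, and for each member the 5 genes of largest r, with and without removal of the time point means. Genes outside this rule are given as chosen after their values were seen. Coordinates and sequences are not given, because no genome of the build was used here.

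The main test was that of edgeR 4.0.16 in R 4.3.3 (quasi-likelihood, TMM, each pair of time points fitted alone, no term for cow, as the study's methods state none). A gene entered a test when 1 or more libraries held 3 or more of its reads. A call needed a Benjamini-Hochberg FDR under 0.05, adjusted over all genes tested, and an absolute log2 fold change over 1, read as log2 because the scale is not stated. log2 CPM used a prior count of 1. For edgeR fits, the SE is the absolute log2 fold change divided by the square root of the test's F statistic. It is thus no separate estimate, and for the 3 members it derives from the comparisons that chose them. Correlations were tested two-sided over all pairings of 9 libraries, or 100000 of them at PP1, in Python 3.11.15 with scipy 1.17.1, and adjusted over 9. The code was tested on simulated data.

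The cow number in the titles pairs the libraries. The mean correlation of residual expression between libraries of the same cow was 0.14 (PreP and PP1), -0.002 (PreP and PP2) and 0.10 (PP1 and PP2), against -0.01, 0.01 and -0.01 for different cows. No 2 libraries were identical. Alternatives were RLE size factors, total counts, filterByExpr, no filter, DESeq2 1.42.0, voom with sample weights (limma 3.58.1), a joint fit of the 3 time points, a replicate block for cow, and omission of each cow in turn.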

Additional observations from a re-analysis of the deposited data

Results flagged for a closer look

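In 6 of 45 groups of values checked, 1 library, or 1 cow for within-cow differences, lay far from the rest by Dixon's test. The genes other than the 3 members were those called, and the groups share libraries. The 2.25 groups that chance would give among independent ones is therefore no measure of this count. MME at PreP was -0.74 log2 CPM in cow B5169, where the next lowest library had 2.63. The within-cow log2 difference of MME between PP1 and PreP was 6.34 in B5169, where the next highest of 8 cows had -2.49. CD68 at PP1 was 5.02 log2 CPM in B5169, and the next lowest library had 6.67. MSR1 at PP1 was 3.94 log2 CPM in the same library, with 5.51 as the next lowest. PYGM at PP2 was 12.70 log2 CPM in B5090 against 1.57 for the next highest library, and LMOD2 was 10.65 against -1.65.

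No value of PTN or ADAMTS1 was among the 6.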

How the results depend on the processing

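The direction of PTN, MME and ADAMTS1 against PreP held under each of the 8 other settings and with each cow left out. Leaving out 1 cow gave log2 fold changes of 2.04 to 2.91 (PP1) and 1.61 to 2.68 (PP2) for PTN, -3.49 to -1.58 and -3.65 to -3.10 for MME, and 0.96 to 1.41 and 1.08 to 1.42 for ADAMTS1. With cow as a replicate block they were 1.82 (SE 0.75) and 1.80 (SE 0.49) for PTN, -3.72 (SE 1.03) and -3.88 (SE 1.02) for MME, and 0.90 (SE 0.37) and 1.07 (SE 0.37) for ADAMTS1. Voom with quality weights gave 1.63 for PTN at PP1 and at PP2, and -3.78 for MME at PP1. Between PP2 and PP1 the sign of PTN (-1.30 to 0.46) and of ADAMTS1 (-0.23 to 0.41) changed with the cow left out, and MME ran from -1.77 to -0.14.

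Of the listed genes, 5 were called higher at PP1, 6 at PP2 and 0 lower. With a replicate block, 1 and 2 were called higher. All time points in 1 fit gave 3 higher at PP1 and 2 between PP2 and PP1, and DESeq2 gave 1 lower at PP1. Leaving out a cow gave 3 (B5129) to 8 (B5169) higher and 0 to 1 (B5169) lower at PP1, and 3 (B4886, B5129) to 9 (B5169) higher and 0 to 1 (B5169) lower at PP2. PYGM at PP2 turned to -0.13 in DESeq2, -0.0855 in voom and -0.19 without B5090 (up to 8.83 without other cows), and LMOD2 to -1.16, -0.76 and -1.25 (up to 10.46), and to -0.048 with the replicate block. The r of PTN and ADAMTS1 at PP1 ran from -0.42 to 0.34 (without B5102), and that of MME and ADAMTS1 at PreP from -0.10 to 0.49 (without B5169). Over all genes, calls at PP1 went from 616 higher and 128 lower to 47 and 11 with the replicate block, and to 813 and 749 in voom. At PP2 they went from 653 and 362 to 145 and 264 with the block. Leaving out a cow gave 263 (B5129) to 1013 (B5169) higher and 33 to 735 lower at PP1, and 244 to 836 higher and 216 to 498 lower at PP2, with the same cows at both ends. Between PP2 and PP1 the joint fit gave 172 higher and 4 lower, the block 1 higher, and the leave-one-cow-out fits 0. The cause was not tested. Few reads on MME after calving limit its level there.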

Other observations

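Without removing the time point means, the genes most like each member over 28 libraries were largely the same, with LUM entering for PTN (r = 0.79), PEX3 for MME (r = 0.87) and SLCO2A1 for ADAMTS1 (r = 0.71). PEX3 is a peroxisome biogenesis factor and SLCO2A1 a prostaglandin transporter. These values hold the courses that the members were chosen for and are given as a description.

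In the 2 libraries with most PTN, CCN4 was also at its highest, 19.3 CPM in B5102 at PP1 and 19.5 CPM in B4987 at PP2, against medians of 1.19 and 2.07 CPM. The gene with the most reads in the former library, ENSBTAG00000013103, has no symbol in the table used. It held 6.96% of the counts of that library and 6.71% in B4987 at PP2, against medians of 0.443% at PreP, 1.58% at PP1 and 1.31% at PP2.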
